A study of Mus musculus with 2 samples.

Results

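Mir204, Mir211, Mir448, Mir764, Mir1264, Mir1298 and Mir1912 are 7 miRNA genes that lie in introns of Trpm3, Trpm1 and Htr2c. They were chosen by name and host gene, a rule that used no counts, though with earlier results of these data known. They make up 7 of the 2202 miRNA genes in the deposited tables. All 7 had sense-strand counts in both libraries. The libraries hold RNA of less than 30 nt from the hippocampus of B6CASTF1/J mice, all female and 18 to 20 months old. These animals are first-generation hybrids of the B6 and CAST strains. The 2 libraries, biological replicates 1 and 2, form a single group with no treatment, genotype or age contrast, so the data give the level of each gene and its spread. The labels name the tissue as a layer of the hippocampus without naming the layer. The tissue records carry different animal numbers but cite a common donor record. The 2 libraries may therefore come from 1 animal or from 2, and n = 2 counts libraries, whose spread may be partly technical.

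A miRNA is cut from a hairpin in a longer transcript and then guides the silencing of messenger RNAs that match its seed, the bases near its 5′ end. A hairpin within an intron can be made together with the messenger RNA of its host gene. Trpm3 and Trpm1 encode cation channels of the TRP melastatin family, and Htr2c encodes a serotonin receptor. Trpm3 and Htr2c are strongly expressed in the epithelium of the choroid plexus, the tissue that secretes cerebrospinal fluid and adjoins the hippocampus, and Htr2c is also used by neurons. Trpm1 is known from melanocytes and retinal bipolar cells. The mature miR-204 is known from choroid plexus, retinal pigment epithelium and lens, where in medaka fish it acts on Meis2, and miR-211 is known from pigment cells.

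The mature sequences of Mir204 and Mir211 are shown first because the genes share a seed. Sequences are those of RefSeq on GRCm38.p6, which held a mature sequence for all 7 genes, 12 in total, and a hairpin for 6. Capitals mark the seed, bases 2 to 8.
miR-204-5p: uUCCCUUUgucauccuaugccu
miR-211-5p: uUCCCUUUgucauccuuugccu
miR-204-3p: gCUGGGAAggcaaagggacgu
miR-211-3p: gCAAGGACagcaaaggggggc
The 5p arms were identical at 21 of 22 bases and differed by A17U, which gives the base of miR-204-5p, the position counted from 1 at the 5′ end, and the base of miR-211-5p. The 3p arms were identical at 14 of 21 bases and had different seeds. The 12 mature sequences carried 11 distinct seeds, so the miR-204-5p and miR-211-5p pair was the one shared seed among the 7 genes.

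The Htr2c hairpins are represented by the arms of its most abundant gene, Mir1298, of Mir1264, and of Mir448, the gene in a separate intron. Capitals again mark bases 2 to 8.
miR-1298-5p: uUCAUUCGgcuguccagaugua
miR-1298-3p: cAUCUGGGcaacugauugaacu
miR-1264-3p: cAAAUCUUauuugagcaccugu
miR-448-5p: gAACAUCCugcauagugcugcc
miR-448-3p: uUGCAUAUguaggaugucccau
The deposited counts belong to whole hairpins, so the arms of a gene were not told apart. In the hairpins of the most abundant gene of each of the 3 hosts, capitals mark the mature arms that a count can come from.
Mir204: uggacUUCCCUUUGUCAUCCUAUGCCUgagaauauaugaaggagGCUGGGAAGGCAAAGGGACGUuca
Mir211: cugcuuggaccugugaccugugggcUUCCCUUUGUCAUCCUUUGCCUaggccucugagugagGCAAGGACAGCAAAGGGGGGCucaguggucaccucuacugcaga
Mir1298: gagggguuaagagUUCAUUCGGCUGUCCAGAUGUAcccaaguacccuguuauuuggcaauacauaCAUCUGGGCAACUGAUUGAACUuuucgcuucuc

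The miRNA genes had 2255838 sense counts in replicate 1 and 4521208 in replicate 2. A count of 0 allows a level of up to 1.33 CPM (sense counts scaled to a sum of 1000000) in replicate 1 and 0.664 CPM in replicate 2. A read of this size covers a mature miRNA, so levels were not divided by hairpin length. Intervals are exact 95% Poisson intervals for the library named. They cover counting error alone, since PCR copies are not independent molecules. As a check of the labelled tissue, 15 listed neuronal miRNA genes all had counts in at least 1 library and summed to 110228 CPM in replicate 1 and 86825 CPM in replicate 2, with Mir127, Mir132, Mir128-1 and Mir137 at the top. The 3 copies of Mir124a, a miRNA gene known from neurons, went the other way, with 13 counts or fewer each in either library. The sum had no other tissue to be set against, so it is a weak check of the label. Unmapped reads were 29.0% of all reads in replicate 1 and 11.2% in replicate 2. The bearing of that difference on the folds between the libraries was not tested. Reads that fit several places in the genome, 36.2% of all reads in replicate 1 and 47.9% in replicate 2, are not in any gene's count. Whether reads of Mir124a were among them was not tested.

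Together the 7 genes took 0.117% ± 0.0247 of the miRNA counts (SD, n = 2), and Mir204 held most of that. Their summed level was 1345 CPM in replicate 1 and 995 CPM in replicate 2. Mir204 supplied 76.9% of the summed counts in replicate 1 (exact binomial 95% interval 75.4 to 78.4) and 80.4% in replicate 2 (79.2 to 81.5). Mir1298 supplied 17.0% (15.7 to 18.4) in replicate 1 and 13.6% (12.7 to 14.7) in replicate 2. The other 5 genes shared the remainder.

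Mir204, the gene in Trpm3, had 2333 counts in replicate 1, or 1034 CPM (993 to 1077), against 3615 counts in replicate 2, or 800 CPM (774 to 826). Its mean was 917 ± 166 CPM (SD, n = 2). Among 2202 genes it ranked 100th in replicate 1, 97th in replicate 2 and 100th by mean. The hairpin (ENSMUSG00000065507.3) lies on chromosome 19, from 22750605 to 22750672 on the plus strand of mm10, the strand of Trpm3. It is intronic in all 18 annotated Trpm3 transcripts that span it, and in 14 of them it lies in intron 6.

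Mir211, the Trpm1 gene with the shared seed, was close to the detection limit. It had 4 counts in each library, which equals 1.77 CPM (0.483 to 4.54) in replicate 1 and 0.885 CPM (0.241 to 2.27) in replicate 2. Mir204 was 583-fold higher than Mir211 in replicate 1 and 904-fold higher in replicate 2, so Mir211 made up 0.171% (exact interval 0.0467 to 0.438) of the counts of this pair in replicate 1 and 0.111% (0.0301 to 0.283) in replicate 2. Mir7670, the remaining gene of the RefSeq table with that seed in a mature arm, had 0 counts in both libraries. Among genes of that table with the seed UCCCUUU in a mature arm, the counts were thus nearly all from Mir204. Counted genes without a mature sequence in the table could not be searched, and 1018 counted genes had one by symbol. The counts are of whole hairpins, so those of Mir204 may include reads of miR-204-3p, which has a different seed. The seed of miR-764-3p, GGAGGCC, is also that of miR-7062-5p. Its gene, Mir7062, had 1 count in replicate 1 and 7 counts in replicate 2. Mir7684, whose 5p arm has the seed of miR-204-3p, had 0 counts in both libraries. The Mir211 hairpin (ENSMUSG00000065585.1; chromosome 7, 64205806 to 64205911, plus strand) is intronic in all 12 Trpm1 transcripts that span it, in intron 6 of 8 of them.

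The longest stretch that the Mir204 and Mir211 hairpins share is 17 bases, and neither shares a longer one with any other counted hairpin, on either strand. A read of a whole 5p arm therefore covers the base that differs, whereas a read that ends before it fits both genes. How many such reads were set aside as multimapping was not tested. For the Htr2c genes the longest stretch shared with another hairpin was 12 or 13 bases.

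The 5 Htr2c genes summed to 309 CPM in replicate 1 and 195 CPM in replicate 2, a mean of 252 ± 80.8 CPM (SD, n = 2). Mir1298 led them in both libraries. It had 517 counts in replicate 1, or 229 CPM (210 to 250), against 614 counts in replicate 2, or 136 CPM (125 to 147). Its mean of 182 ± 66.0 CPM ranked it 171st. It held 74.2% (exact interval 70.8 to 77.4) of the Htr2c counts in replicate 1 and 69.8% (66.6 to 72.8) in replicate 2.

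Mir1264 was the steadiest of the 7 between the libraries by its coefficient of variation, 7.07%. The 75 counts of replicate 1 gave 33.2 CPM (26.2 to 41.7), and the 136 of replicate 2 gave 30.1 CPM (25.2 to 35.6). Mir448 had 74 counts in replicate 1, or 32.8 CPM (25.8 to 41.2), against 59 counts in replicate 2, or 13.0 CPM (9.93 to 16.8). Mir448 thus stood at the level of Mir1264 in replicate 1 and at that of Mir764 in replicate 2.

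Mir764 had 27 counts in replicate 1, or 12.0 CPM (7.89 to 17.4), against 69 counts in replicate 2, or 15.3 CPM (11.9 to 19.3). Mir1912, like Mir211, was near the limit, with 4 counts in replicate 1, or 1.77 CPM (0.483 to 4.54), against 2 counts in replicate 2, or 0.442 CPM (0.0536 to 1.60). In replicate 2 that is below the 0.664 CPM that a count of 0 allows.

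**Figure D1:**
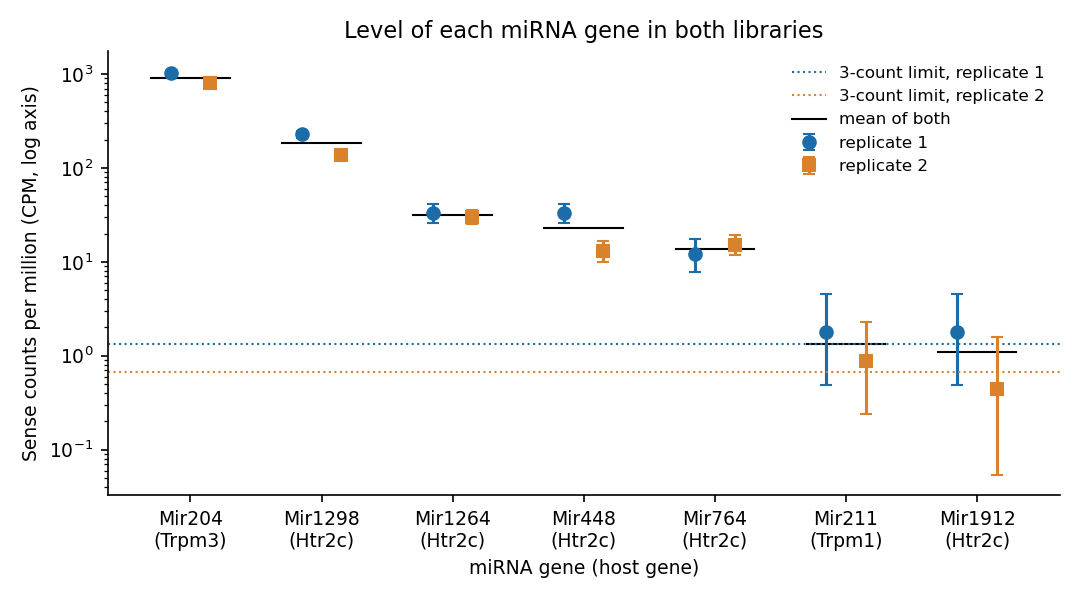
CPM of each gene (log axis) in replicate 1 (circles) and replicate 2 (squares), with exact 95% Poisson intervals, the mean of both (black lines) and the level that 3 counts give (dotted lines). Mir204 at 917 CPM and Mir1298 at 182 CPM stand above the rest, Mir1264, Mir448 and Mir764 lie between 12.0 and 33.2 CPM, and Mir211 and Mir1912 lie at the dotted lines.

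By mean level the order was Mir204, Mir1298, Mir1264, Mir448, Mir764, Mir211 and Mir1912. The values of Mir204 and Mir1298 did not overlap between the libraries, nor did those of Mir1298 and Mir1264 or of Mir764 and Mir211. Mir1264 and Mir448 overlapped, as did Mir448 and Mir764, and Mir211 and Mir1912, so the order within those pairs is not separated by the spread between these libraries. The means ran from 1.11 ± 0.941 CPM for Mir1912 and 1.33 ± 0.628 CPM for Mir211 to 13.6 ± 2.33 CPM for Mir764, 22.9 ± 14.0 CPM for Mir448 and 31.7 ± 2.24 CPM for Mir1264.

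Along Htr2c the levels did not follow the order of the hairpins. The gene spans 234765 bases of chromosome X, from 146962513 to 147197277 on the plus strand, and all 5 hairpins lie on its strand and in no annotated exon of it. In the direction of transcription they come in the order Mir764 (147002259 to 147002366), Mir1912 (147009441 to 147009527), Mir1264 (147010601 to 147010686), Mir1298 (147064905 to 147065002) and Mir448 (147158210 to 147158321). The first 4 share an intron, the second in 5 of the 6 transcripts that span them, while Mir448 lies further on, in the fourth intron of 3 of the 4 transcripts that span it. Mir1912 and Mir1264 are separated by 1073 bases, the closest pair, yet Mir1264 had 18.8 times the counts of Mir1912 in replicate 1 (75 against 4) and 68 times in replicate 2 (136 against 2).

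The annotation holds 2 further miRNA genes in Htr2c and 1 in Trpm1, all outside the 7. Gm22650, in the same intron as Mir764 and 2749 bases before it, had 2 counts in replicate 1, or 0.887 CPM, and 12 counts in replicate 2, or 2.65 CPM. Gm24627 in Htr2c, and Mir6416 on the opposite strand of Trpm1, had 0 counts in both libraries, which allows up to 1.33 CPM in replicate 1 and 0.664 CPM in replicate 2. Trpm3 holds no other counted miRNA gene.

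**Figure D2:**
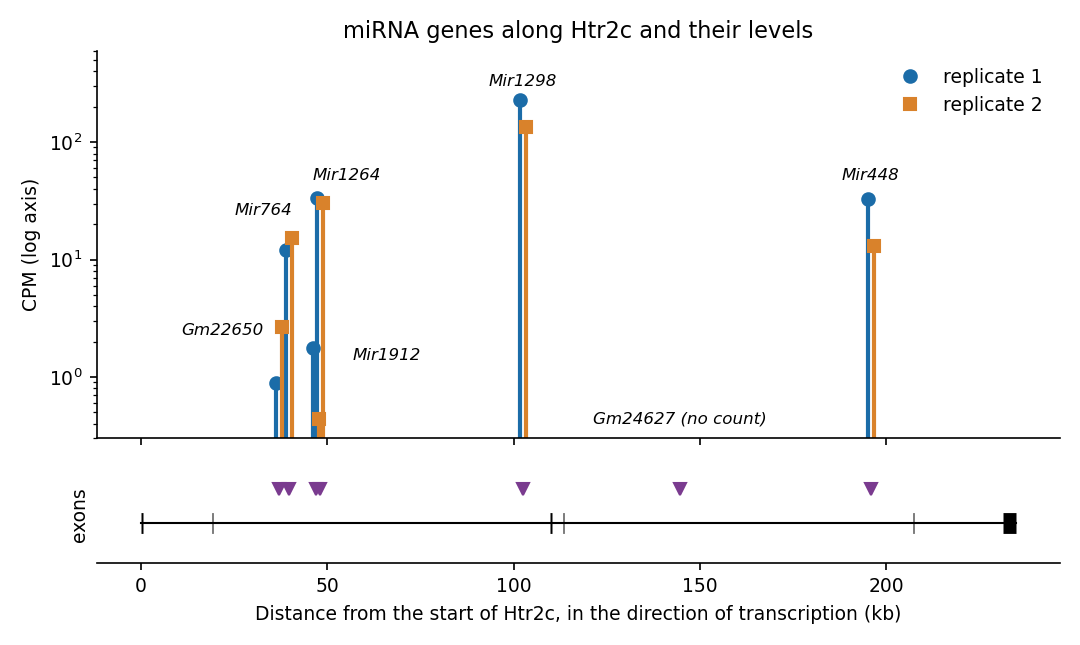
Upper panel, CPM (log axis) of the miRNA genes of Htr2c in replicate 1 (circles) and replicate 2 (squares) by distance in kb from the start of the gene; lower panel, the exons of 1 annotated transcript (black bars) with the hairpins (triangles). Mir1298, 102 kb from the start, is the highest in both libraries, at 229 CPM in replicate 1, against 136 CPM in replicate 2. Mir1912, next to Mir1264, is the lowest of the 5, at 1.77 CPM in replicate 1, against 0.442 CPM in replicate 2.

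Between the libraries, 1 of the 7 genes, Mir448, was called, 2.51-fold higher in replicate 1 (exact 95% interval 1.76 to 3.60; log2 ratio 1.33). A two-sided exact conditional binomial test of the counts, with Benjamini-Hochberg adjustment over 495 genes at a mean of 1 CPM or more, gave an adjusted p of 4.75e-07 for it. A gene was called at an adjusted p under 0.05 and a fold of 2 or more. The same rule called 17.6% of all genes tested, 13.7% as higher in replicate 1, so 1 of 7 is near that background. This test sets the reads of 2 libraries of 1 group against each other and knows nothing of how replicates vary. In edgeR's exactTest, Mir448 had an unadjusted p of 0.135 and 0 of the 7 genes were called, or reached an unadjusted p under 0.05, against 0.606% of all genes called. Its dispersion could be estimated only from the same pair of libraries that it compares, so few calls are built into it, and it says nothing for or against the difference of Mir448.

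Mir1298 was 1.69-fold higher in replicate 1 (1.50 to 1.90) and Mir204 was 1.29-fold higher (1.23 to 1.36). Both differed by more than counting error, with adjusted p of 2.55e-17 for Mir1298 and 4.03e-21 for Mir204 in the binomial test, but stayed under the fold of 2. By adjusted p alone, 3 of the 7 genes passed, against 53.5% of all genes tested. Mir1264 had a fold of 1.11 (0.822 to 1.48) and an adjusted p of 0.639, and Mir764 a fold of 0.784 (0.483 to 1.24) and an adjusted p of 0.444. With 4 counts or fewer in a library, Mir211 (fold 2.00, interval 0.373 to 10.8) and Mir1912 (fold 4.01, interval 0.574 to 44.3) were too shallow for their folds to be told from 1.

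The folds of some pairs of Htr2c genes differed by more than counting error. The intervals of Mir448 and Mir1298 overlapped, as did those of Mir1264 and Mir764, and that of Mir1912 overlapped all the others. The intervals of Mir448 and Mir1298 lay above 1, that of Mir448 did not overlap the intervals of Mir1264 (0.822 to 1.48) or Mir764 (0.483 to 1.24), and that of Mir1298 (1.50 to 1.90) lay above both as well. Mir448 supplied 10.6% (8.43 to 13.1) of the Htr2c counts in replicate 1 and 6.70% (5.14 to 8.56) in replicate 2. Mir764 supplied 3.87% (2.57 to 5.59) in replicate 1 and 7.84% (6.15 to 9.82) in replicate 2. As sums, the 5 Htr2c genes were 1.59-fold higher in replicate 1 (1.44 to 1.76), and Mir204 with Mir211 1.29-fold (1.23 to 1.36).

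The median log2 ratio of the 7 genes was 0.76, against 0.19 for all 495 genes tested, and 6 of the 7 lay above 0, as did 304 of the 495. That median is the value of Mir1298. Above it lay Mir448 (1.33) and the shallow Mir211 (1.00) and Mir1912 (1.85), and below it Mir204 (0.37), Mir1264 (0.15) and Mir764 (-0.33). The folds of Mir211 and Mir1912 could not be told from 1, so the median rests in part on genes near the detection limit. The scaling matters for small ratios: edgeR's TMM factors lower every log2 ratio by 0.12 and DESeq2's size factors by 0.19. With DESeq2's factors, the log2 ratio of Mir1264 is -0.043 in place of 0.15.

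**Figure D3:**
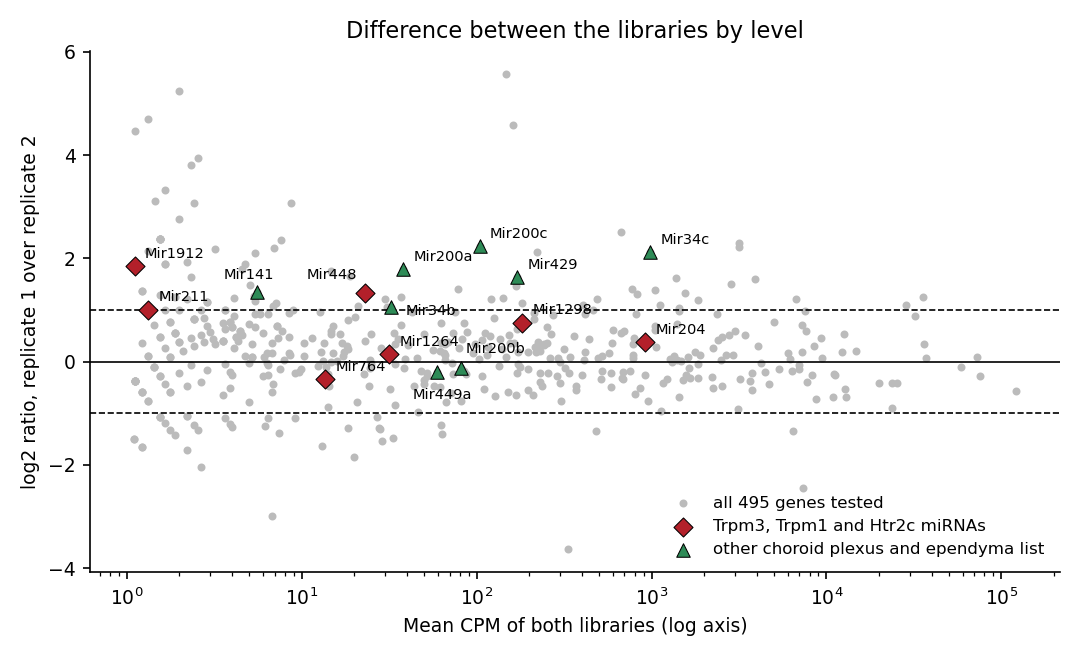
log2 ratio of replicate 1 over replicate 2 against mean CPM (log axis) for all 495 genes tested (grey), the 7 intronic genes (diamonds) and the other genes of the choroid plexus and ependyma list (triangles); dashed lines mark a fold of 2. Mir448 and the shallow Mir211 and Mir1912 lie at or above the upper dashed line, and Mir204 and Mir1298 lie between it and 0.

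A list of 10 other genes known from ciliated and epithelial cells of the brain's ventricles, of the miR-200 and miR-34 families and their Mir449 relatives, summed to 2271 CPM in replicate 1 and 676 CPM in replicate 2. Of its 8 genes tested, 6 were called higher in replicate 1, against 13.7% of all genes tested, and 0 lower. That count was 5 with TMM factors, 4 with DESeq2 size factors and 0 in exactTest. Their median log2 ratio was 1.49, and the difference between this list and the 7 intronic genes was not tested. The lists of this paragraph were chosen with earlier results of these data known. A share of calls above that of all genes is therefore no independent result. Mir34c, a miRNA of ciliated cells, reached 1597 CPM in replicate 1, against 366 CPM in replicate 2, a fold of 4.36 (4.12 to 4.63), and its interval did not overlap that of Mir204 (1.23 to 1.36). Mir429, of the epithelial miR-200 family, was measured at 257 CPM in replicate 1, against 82.7 CPM in replicate 2, and Mir200c at 172 CPM, against 36.3 CPM in replicate 2. Mir200b (78.5 CPM in replicate 1, 85.4 CPM in replicate 2) and Mir449a (55.4 CPM in replicate 1, 63.9 CPM in replicate 2) were not called, Mir449c was under the 1 CPM needed for the test, and Mir449b had 0 counts in both libraries. A list of 6 genes known from retina, pigment epithelium or midline brain, led by Mir187, summed to 5758 CPM in replicate 1, against 2160 CPM in replicate 2, and 3 of its 6 genes were called higher in replicate 1. Of 13 neuronal genes tested, 1 (Mir132) was called higher in replicate 1. None of 3 oligodendrocyte, 3 endothelial and mural and 5 microglia and leukocyte genes tested was called by the binomial test. The share over all genes tested was 17.6% in either direction. Uncalled genes could still differ by more than counting error while under the fold of 2. In the binomial test, Mir338 had a fold of 1.42 (adjusted p 3.98e-140) and Mir143 a fold of 0.831 (adjusted p 6.69e-93). Among 2 erythroid genes, 1 (Mir144) was called lower in replicate 1. The part of other cell types in the difference of Mir448 was not tested. In bulk tissue, fewer cells of a type and less RNA per cell cannot be told apart.

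**Figure D4:**
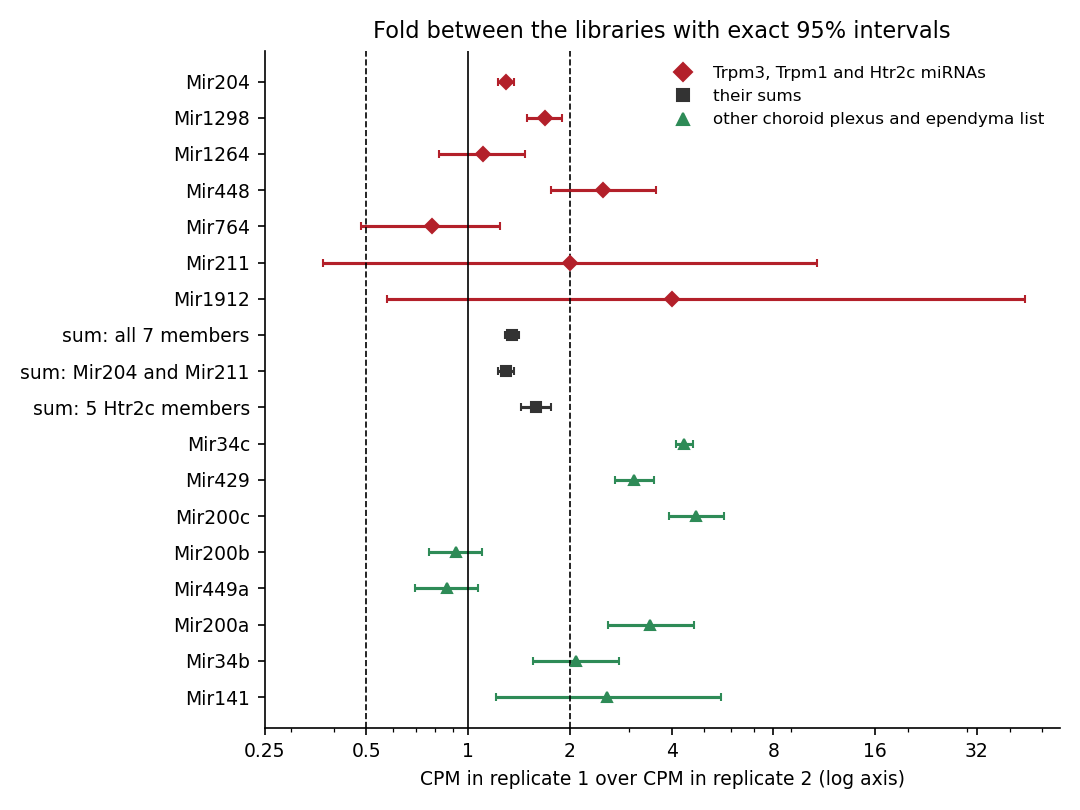
CPM in replicate 1 over CPM in replicate 2 (log axis) with exact 95% intervals for the 7 intronic genes (diamonds), their sums (squares) and the tested genes of the other choroid plexus and ependyma list (triangles); dashed lines mark folds of 0.5 and 2. Mir204 at 1.29 and Mir1298 at 1.69 have narrow intervals under 2, Mir34c at 4.36 lies beyond them, the interval of Mir211 spans both dashed lines, and that of Mir1912 runs from 0.574 to 44.3.

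For the 5 genes at 10 CPM or more in both libraries, the 2 genes nearest in level, by Euclidean distance in log2(CPM + 1), lay outside Trpm3, Trpm1 and Htr2c. Nearest to Mir204 were Mir93 in Mcm7 (distance 0.30; 1155 CPM in replicate 1, 954 CPM in replicate 2) and Mir532 in Clcn5 (distance 0.30; 926 CPM in replicate 1 and 670 CPM in replicate 2). Nearest to Mir1298 were Mir496a (distance 0.15) and Mir374b (0.28), to Mir1264 Mir1188 (0.04) and Mir1193 (0.19), to Mir448 Mir135a-2 (0.04) and Mir344d-3 (0.21), and to Mir764 Mir223 (0.10) and Mir190b (0.13). With 2 libraries this measures a like level and ratio, and no pattern beyond them.

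All 7 genes had 0 antisense counts in both libraries, and their unstranded counts equalled their sense counts. The predicted minimum free energy of the hairpins ran from -0.543 kcal/mol per base for Mir211 to -0.399 for Mir1264, against a median of -0.432 over the 572 genes with counts in both libraries; 6 of the 7 were below that median. Mir211, the hairpin with the lowest energy per base and the highest GC content (57.5%), was among the least abundant, while Mir204 stood at -0.496 and 48.5% GC.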

How the data were processed

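The authors deposited raw counts per miRNA gene, 1 table per library, unpooled, with an unstranded, a sense and an antisense column after 4 rows of totals. The assembly was mm10 and the annotation M21, per the labels and the notes deposited with the tables. The aligner and counter were not given in the sources used here. The gene identifiers, 2202 in number, were named from GENCODE M21, which also gave hosts, introns and hairpins. The rows of totals, which hold 69.8% of reads in replicate 1 and 62.8% in replicate 2, stayed out of library sums and tests.

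Sense counts were scaled to CPM on the gene sum. Log2 ratios added 0.5 counts to each count; folds were computed on the counts themselves. SciPy 1.17.1 gave the exact intervals and the binomial test, which was run on all genes. It was used because 2 libraries of a single group leave no residual degrees of freedom for a quasi-likelihood test. It was also tested on simulated data. That simulation held counting error alone, so it does not cover the spread between real libraries. edgeR 4.0.16 gave TMM factors and exactTest, whose common dispersion corresponds to a coefficient of variation of 39.9%. DESeq2 1.42.0 gave size factors, and ViennaRNA 2.7.2 the hairpin energies. Genes named are the 7, the other miRNA genes of their hosts, genes that share their seeds, the 2 nearest in level to each gene at 10 CPM or more, and the 3 highest of the other choroid plexus and ependyma list. Further genes were named after their values were seen. The genes, lists and tests were chosen with earlier results of these data known.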

Additional observations from a re-analysis of the deposited data

How the results depend on the processing

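No paired analysis was possible because the libraries form a single group. With all reads as the denominator in place of the gene sum, the summed level fell to 388 CPM for all 7 genes, 305 for Mir204 with Mir211 and 82.8 for the 5 Htr2c genes, since that sum includes unmapped and multimapping reads. The unstranded column, TMM factors and DESeq2 size factors each moved these 3 sums by less than the SD between the libraries. Either library alone lies within that SD by construction and tests nothing; it put the sum of all 7 genes at 1345 CPM with replicate 1 and 995 CPM with replicate 2. Of the values of single genes under the other settings, 21 levels moved by less than that SD and 7 by more, 6 of them with all reads as the denominator; 33 log2 ratios kept their sign and side of the call rule. Mir448 was the called gene under the 3 other scalings, the unstranded column and both other filters on low counts. Without the fold of 2, 3 of the 7 genes were called (Mir204, Mir1298 and Mir448), against 53.5% of all genes. With edgeR's exactTest, 0 of the 7 and 0 of the other choroid plexus and ependyma genes (6 by the binomial test) were called; its dispersion comes from the pair of libraries compared. With DESeq2 size factors the log2 ratio of Mir1264 was -0.043. Leaving out a library is not possible for a ratio of 2 libraries. Depth limits Mir211 and Mir1912, with 4 counts or fewer.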
